A study of Rattus norvegicus with 46 samples.

Results

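The SLC25 carriers are the proteins of the mitochondrial inner membrane that exchange metabolites, nucleotides and cofactors between the matrix and the cytosol. Their RNA was measured here in rat kidney after ischemia and reperfusion. The members were chosen by name. Every probe set on the array that was annotated with a single gene symbol starting with Slc25a was taken, which gave 47 probe sets for 43 genes, out of 29214 probe sets and 17245 gene symbols in all. For the 4 genes with 2 probe sets, the probe set with the higher mean over the 46 arrays stood for the gene. In the deposited annotation 4 more probe sets carried a carrier symbol together with another symbol, and these were left out.

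The arrays held RNA from frozen kidney tissue, cut into pieces, of male Wister rats of 200 to 300 g, with 1 array per animal. Dex rats received dexamethasone at 3 mg/kg, VPA rats received valproic acid at 150 mg/kg and Vehicle rats received saline, each given intraperitoneally before surgery. All 3 treatments were followed by 45 min of left renal ischemia, reperfusion and right nephrectomy, and the left kidney was taken at 3, 24 or 120 h. In time order the groups held 4, 5 and 4 Dex rats, 5, 5 and 4 VPA rats, and 5, 4 and 5 Vehicle rats. The naive group was 5 rats with neither injury nor treatment. The naive rats had no surgery and kept both kidneys, the 3 h rats stayed under anesthesia until sacrifice, and the 24 and 120 h rats were given buprenorphine after surgery. A comparison with naive therefore holds injury, nephrectomy, anesthesia and drug together, and these cannot be told apart. By the paper's supplement the 3 h experiments were done before those at 24 and 120 h. Time of reperfusion and order of the experiments therefore cannot be told apart either. No group received Dex or VPA without injury.

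Carriers of this family are built from repeats of membrane-spanning helices. They are made from nuclear genes, imported from the cytosol and inserted into the inner membrane. The proximal tubule, which takes up most of the filtered salt and solute, draws its ATP chiefly from fatty acid and glutamine oxidation, so that it depends on ADP, phosphate, acylcarnitine and dicarboxylate exchange across this membrane. A group of the carriers, those for ATP-Mg and phosphate, has calcium-binding EF hands and loads or unloads the matrix pool of adenine nucleotides when cytosolic calcium rises.

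The array values are signals on a linear scale, to which 16 was added before log2 was taken. Fold changes below are differences of log2(signal + 16), with the standard error of the fit, and they understate the change of dim probe sets. The signals of different probe sets are not on a common scale, so each is compared only with itself. The mean signals of the carriers ranged between 30.5 and 3313, and 9 of the 43 lay under the median signal of a typical array (array medians 64.7 to 87.5). The test was limma with 10 group means, and p-values were adjusted by the Benjamini-Hochberg method. The main test used the 14607 probe sets whose SD over all arrays was above the median, and a gene was called when it changed at least 2-fold with an adjusted p under 0.05. That filter kept 22 of the 43 carriers. Because a carrier could enter it through its own change, the family as a whole is described over all 29214 probe sets without a fold limit. The 46 arrays gave p-values that measure the spread between animals.

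Several animals stood apart from their group. By the whole array, 8 of the 46 were most like the mean of another time point or of naive: Dex 24 h replicate 4, VPA 3 h replicate 3, VPA 24 h replicate 2, VPA 120 h replicates 2 and 3, Vehicle 24 h replicate 1 and Vehicle 120 h replicates 1 and 4. The labels were kept for all of them. Values without these 8 arrays are given beside the results that rest on them. They were picked by their likeness to another group, so leaving them out narrows the spread and can widen the differences between groups by construction. Differences, standard errors, p-values and counts without them describe the selected rats only and are no support for a result. The carriers differed between these animals too. At 120 h, 4 and 6 of the 43 carriers lay below every naive rat in VPA replicates 2 and 3, against 28 and 27 in VPA replicates 1 and 4. At 24 h, 7 carriers lay below every naive rat in Dex replicate 4, against 17 to 25 in the other Dex rats. The same count over all probe sets was not made, so these counts are not shown to be particular to the carriers.

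**Figure D1:**
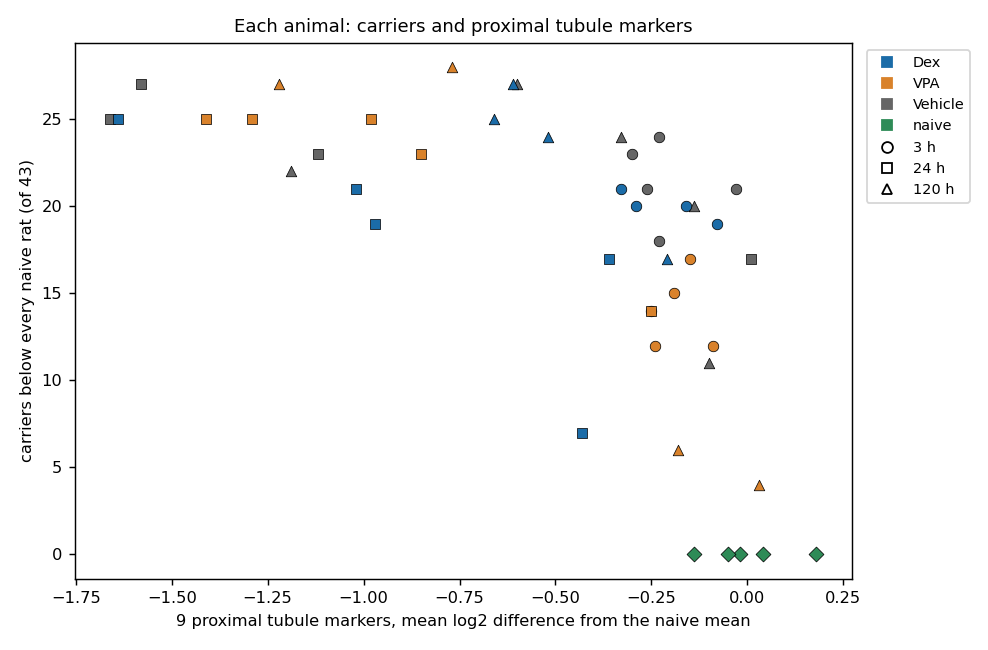
Each point is 1 rat, with the Dex, VPA, Vehicle and naive rats at 3, 24 and 120 h. The vertical axis counts how many of the 43 carriers had a signal below that of every naive rat, and the horizontal axis gives the mean log2 difference of 9 proximal tubule markers from the naive mean. Among the 24 h rats the count was between 7 and 27, and in VPA rats at 120 h it was 4, 6, 27 and 28. The same count over all probe sets was not made.

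More carriers fell than rose in 8 of the 9 comparisons with naive, and 0 were called in VPA rats at 120 h. The falls were most numerous at 24 h in VPA and Vehicle rats and at 120 h in Dex rats. At 24 h, 8 carriers fell and 4 rose in Dex rats against naive, 15 fell and 3 rose in VPA rats, and 19 fell and 2 rose in Vehicle rats, by the test over all probe sets with no fold limit. In Vehicle rats at 24 h these 19 were 44.2% of the 43 carriers, where 8.91% of all probe sets fell. In VPA rats the share was 34.9%, where 7.71% of all probe sets fell, and in Dex rats it was 18.6%, where 5.57% fell. The shares that rose at 24 h were 9.3% of the carriers against 7.61% of all probe sets for Dex, 6.98% against 14.2% for VPA and 4.65% against 10.9% for Vehicle. The median log2 difference of the 43 carriers from naive at 24 h was -0.13 in Dex, -0.33 in VPA and -0.38 in Vehicle, and the median over all probe sets was 0.10, 0.06 and 0.05 in the same order. All 3 comparisons use the same 5 naive rats.

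At 3 h, 7 carriers fell and 5 rose in Dex rats (8.3% and 7.73% of all probe sets), 4 fell and 3 rose in VPA rats (5.32% and 5.52%), and 9 fell and 2 rose in Vehicle rats (9.57% and 5.76%). At 120 h, 11 fell and 2 rose in Dex rats (5.16% and 9.22%), and 5 fell and 2 rose in Vehicle rats (2.3% and 4.41%). The median carrier difference was -0.17 in Dex, -0.05 in VPA and -0.20 in Vehicle at 3 h, and -0.32, -0.21 and -0.22 at 120 h. In VPA rats at 120 h limma called 0 carriers, where 0.00342% of all probe sets fell and 0.0171% rose. There, 12 carriers had an unadjusted p under 0.05, and 31 of the 43 had a lower mean than naive, where 47.6% of all probe sets were lower. The share of all probe sets at an unadjusted p under 0.05 was not counted, here or below. Counts at that limit are thus not set against the whole array. Without replicates 2 and 3 of VPA 120 h and the other 6 arrays named above, the main test called 1 carrier higher and 7 lower there at 2-fold, where it called 0 with them, and 9.52% of the probe sets tested rose and 8.04% fell at 2-fold in that smaller fit. Across the 9 comparisons with naive, 32 carriers passed in at least 1 and 11 in none, among them Slc25a1, the citrate carrier, Slc25a28, mitoferrin-2, and Slc25a17, the peroxisomal carrier of coenzyme A and nucleotides.

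**Figure D2:**
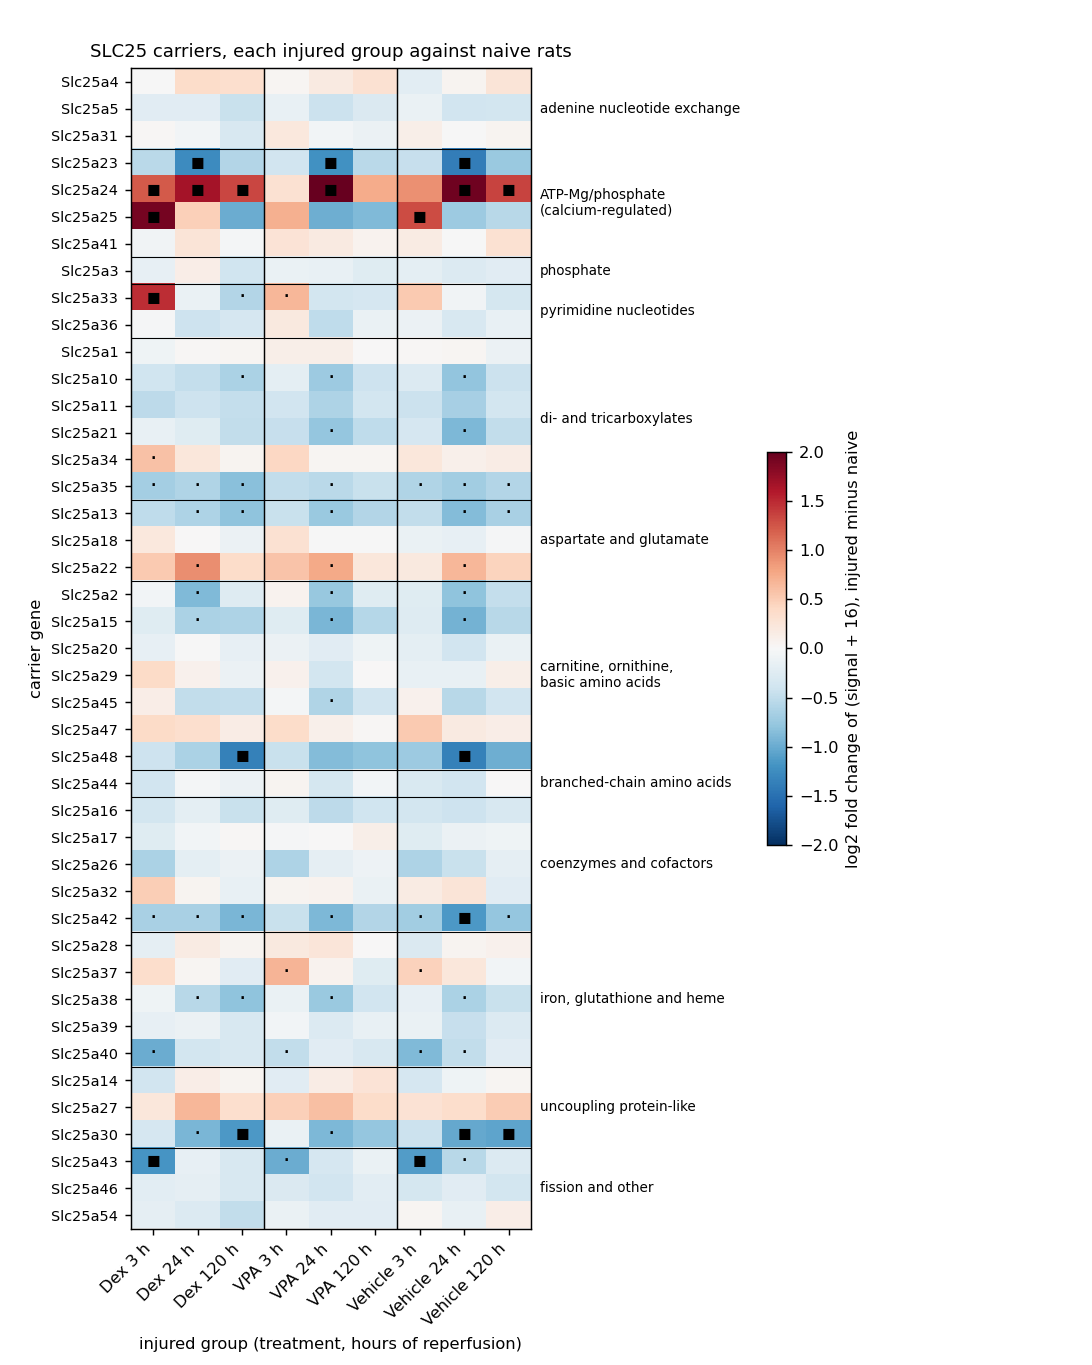
Rows are the 43 carriers grouped by role, and columns are Dex, VPA and Vehicle at 3, 24 and 120 h, each against naive. Colour is the log2 difference of signal + 16. A square marks a call at 2-fold and a dot an adjusted p under 0.05 without the fold limit, both over the 14607 probe sets of the main test, where 22 of the carriers could be called.

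The changes of at least 2-fold were carried by 8 carriers, on the 1 probe set chosen for each gene. The other probe set of Slc25a13, not counted here, was also called at 2-fold, as given further on. At 3 h, Dex rats had 3 higher and 1 lower of them (4.44% and 0.657% of the probe sets tested), VPA rats 0 (1.43% and 0.459%) and Vehicle rats 1 higher and 1 lower (3.18% and 0.459%). At 24 h there were 1 and 1 in Dex (2.59% and 2.59%), 1 and 1 in VPA (5.92% and 3.55%) and 1 and 4 in Vehicle (4.79% and 4.23%). At 120 h there were 1 and 2 in Dex (4.76% and 3.73%), 0 in VPA (0.493% and 0.192%) and 1 and 1 in Vehicle (1.83% and 1.51%). For VPA against naive, limma gave 13 carriers at 3 h and 12 at 120 h with an unadjusted p under 0.05, and an analysis of variance without shrinkage also called 0 at 2-fold at both times.

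The same test without the 2-fold limit, among the 22 carriers it held, is given for the dots of the heatmap only, since a carrier could enter that set by changing. At 3 h, 4 carriers rose and 4 fell in Dex rats (11.2% and 8.56% of the probe sets tested), 2 and 2 in VPA rats (6.89% and 6.15%) and 2 and 4 in Vehicle rats (9.27% and 9.26%). At 24 h it was 2 and 8 in Dex (11.9% and 8.49%), 2 and 11 in VPA (21.8% and 11.2%) and 2 and 13 in Vehicle (17.1% and 11.9%). At 120 h, 1 rose and 8 fell in Dex (17.4% and 9.39%), and 1 and 4 in Vehicle (8.86% and 4.22%). In VPA at 120 h limma called 0 (1.04% and 0.342%), as did the analysis of variance, with the counts at an unadjusted p given above. With a pseudocount of 1, 17 of the carriers entered the test, and the counts that rose and fell were 2 and 2 in Dex, 1 and 1 in VPA and 1 and 3 in Vehicle at 3 h. They were 2 and 3, 2 and 7, and 2 and 10 at 24 h in the same order of treatments, and 1 and 4 in Dex and 1 and 2 in Vehicle at 120 h.

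Of the ATP-Mg/phosphate carriers of the EF-hand type, Slc25a24 and Slc25a25 had the furthest differences from naive of all carriers, and the 3 did not move together. Slc25a25 (SCaMC-2) rose at 3 h, Slc25a24 (SCaMC-1) rose mainly at 24 h, Slc25a23 (SCaMC-3) fell at 24 h, and Slc25a41, the member without EF hands, was called in no comparison. The promoter windows of these 3 and of Slc25a33, described further on, are printed because the 4 genes differ in direction or time. Each is 300 bases of the RefSeq sequence on GRCr8, 250 before and 50 from the annotated start, read 5′ to 3′ on the gene's strand. Capitals mark the cAMP response element TGACGTCA and the CCAAT box (CCAAT, or ATTGG on the other strand). The windows are chr3:36116532-36116831 (minus strand) for Slc25a25, chr2:199449175-199449474 (plus strand) for Slc25a24, chr9:1985316-1985615 (minus strand) for Slc25a23 and chr5:165502924-165503223 (minus strand) for Slc25a33.
Slc25a25: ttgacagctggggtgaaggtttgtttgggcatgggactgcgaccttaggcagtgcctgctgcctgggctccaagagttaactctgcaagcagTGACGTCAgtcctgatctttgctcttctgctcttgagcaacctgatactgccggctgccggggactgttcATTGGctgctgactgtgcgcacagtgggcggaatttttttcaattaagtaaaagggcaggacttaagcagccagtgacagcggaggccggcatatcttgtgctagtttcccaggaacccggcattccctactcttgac
Slc25a24: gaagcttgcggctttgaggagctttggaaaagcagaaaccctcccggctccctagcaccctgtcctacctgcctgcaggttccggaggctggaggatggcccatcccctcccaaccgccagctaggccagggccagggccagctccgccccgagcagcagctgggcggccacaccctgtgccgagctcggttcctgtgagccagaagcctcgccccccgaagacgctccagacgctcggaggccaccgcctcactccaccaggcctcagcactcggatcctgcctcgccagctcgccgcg
Slc25a23: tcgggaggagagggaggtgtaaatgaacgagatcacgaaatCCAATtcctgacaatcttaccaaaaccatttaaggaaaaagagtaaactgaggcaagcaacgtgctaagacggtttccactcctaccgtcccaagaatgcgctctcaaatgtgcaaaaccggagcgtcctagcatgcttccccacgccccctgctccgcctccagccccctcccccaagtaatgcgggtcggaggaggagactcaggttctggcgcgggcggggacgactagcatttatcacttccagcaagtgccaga
Slc25a33: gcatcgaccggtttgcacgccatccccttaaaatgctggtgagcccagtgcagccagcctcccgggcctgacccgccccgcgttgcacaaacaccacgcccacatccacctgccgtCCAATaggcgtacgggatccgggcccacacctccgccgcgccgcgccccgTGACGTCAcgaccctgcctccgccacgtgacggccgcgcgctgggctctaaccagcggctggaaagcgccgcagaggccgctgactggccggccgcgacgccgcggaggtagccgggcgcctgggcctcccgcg

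TGACGTCA, read on both strands, was found in 1.83% of 33469 promoter windows of that length, and in 2 of the 37 carrier windows, those of Slc25a25 (positions -158 to -151 from the start) and Slc25a33 (-84 to -77). These were the carriers with the largest rises at 3 h in Dex rats. CCAAT was found in 37.5% of all windows and in 21 of the 37 carrier windows (56.8%), including Slc25a25, Slc25a33 and Slc25a23 but not Slc25a24. The full palindromic glucocorticoid response element was found in 0.0149% of all windows, too few to expect a match in 37, and in 0 of the carrier windows. Its core ACANNNTGT was found in 6.86% of all windows and in 2 carrier windows (5.41%), those of Slc25a13 and Slc25a24. The half-site AGAACA was found in 20.7% of all windows and in 4 carrier windows (10.8%), none of them printed here. The 19 motifs searched were chosen after the fits were seen, and a match describes only the letters in the window.

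Slc25a25 had signals of 1187, 1237, 1139 and 1228 in Dex rats at 3 h, and 285.1, 706.6, 235.9, 1030 and 695.6 in VPA rats. Vehicle rats at 3 h had 851.6, 592.2, 734.7, 1012 and 794.9, and naive rats had 349.9, 515.6, 208.7, 184.2 and 379.9. Every Dex rat was above every Vehicle rat and every Vehicle rat above every naive rat, whereas VPA replicates 1 and 3 were within the naive range. Against naive the log2 difference was 1.91 ± 0.44 in Dex (limma, adjusted p 0.0012), 0.71 ± 0.41 in VPA (adjusted p 0.26) and 1.31 ± 0.41 in Vehicle (adjusted p 0.02). The Vehicle call was lost without naive replicate 3 or 4. Dex against Vehicle at 3 h was 0.60 ± 0.44 (adjusted p 1).

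At 24 h Slc25a25 had signals of 162.5, 748.5, 664.2, 369.2 and 469.9 in Dex rats, 148, 200.3, 113.8, 149.9 and 143.5 in VPA rats, and 653.8, 94.46, 160.2 and 94.2 in Vehicle rats. Only Vehicle replicate 1 of that group lay in the range of the 4 higher Dex rats. Dex against Vehicle at 24 h was 1.19 ± 0.44, which did not pass (limma, adjusted p 0.32). Without Vehicle 24 h replicate 1 it was called. Without the 8 arrays named above, a selection that can widen it, the difference was 1.84 ± 0.37 (adjusted p 0.012). At 120 h Dex rats had 207.8, 111, 175.7 and 106.6, and Slc25a25 fell by 1.47 on the log2 scale at 120 h against 24 h in Dex rats (SE 0.44, adjusted p 0.021), the 1 carrier called in that comparison, where 2.14% of probe sets rose and 4.17% fell. That call was lost without Dex 24 h replicate 2 or Dex 120 h replicate 4. Without a fold limit Slc25a2, an ornithine carrier, also passed there, with a rise of 0.63 ± 0.17 (adjusted p 0.013, where 6.44% of probe sets rose and 8.52% fell). The difference between Dex and Vehicle in the change of Slc25a25 was -1.63 ± 0.62 (adjusted p 0.34).

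Slc25a24 had signals of 825.1, 549, 503, 116.8 and 746.1 in Dex rats at 24 h, 660.3, 289.1, 641, 786.1 and 817.5 in VPA rats, and 222.3, 820.6, 702.2 and 769.6 in Vehicle rats. The naive rats had 199.4, 111, 116, 124 and 140.4. All VPA and Vehicle rats were above the naive range, and Dex replicate 4 was within it. Slc25a24 rose by 1.66 ± 0.40 in Dex (limma, adjusted p 0.0037), 2.03 ± 0.40 in VPA (adjusted p 0.00029) and 1.94 ± 0.43 in Vehicle (adjusted p 0.0011) on the log2 scale. Its other probe set gave 1.57, 1.90 and 1.97 in the same order.

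At 3 h Slc25a24 rose by 1.23 ± 0.43 in Dex rats (limma, adjusted p 0.036), with signals of 344.5, 265.8, 360.7 and 403. That call was lost by an analysis of variance and with a pseudocount of 1 (adjusted p 0.051 in both), and it held in 2 of 9 fits with 1 array left out, those without naive replicate 1 or Dex 3 h replicate 2. The VPA rats differed from naive by 0.30 ± 0.40 and the Vehicle rats by 0.91 ± 0.40, and neither passed. At 120 h it rose by 1.33 ± 0.43 in Dex (adjusted p 0.019) and 1.35 ± 0.40 in Vehicle (adjusted p 0.026). The Dex call was lost without Dex 120 h replicate 3 or 4. The Vehicle call held in 3 of 10 fits with 1 array left out, and was lost without naive replicate 2, 3 or 4 or Vehicle 120 h replicate 2, 3, 4 or 5. The VPA rats at 120 h had 390.3, 122.3, 129.8 and 487.2, so that replicates 2 and 3 were in the naive range, and the difference of 0.74 ± 0.43 did not pass (adjusted p 0.29). Without the 8 arrays it was 1.58 ± 0.27.

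**Figure D3:**
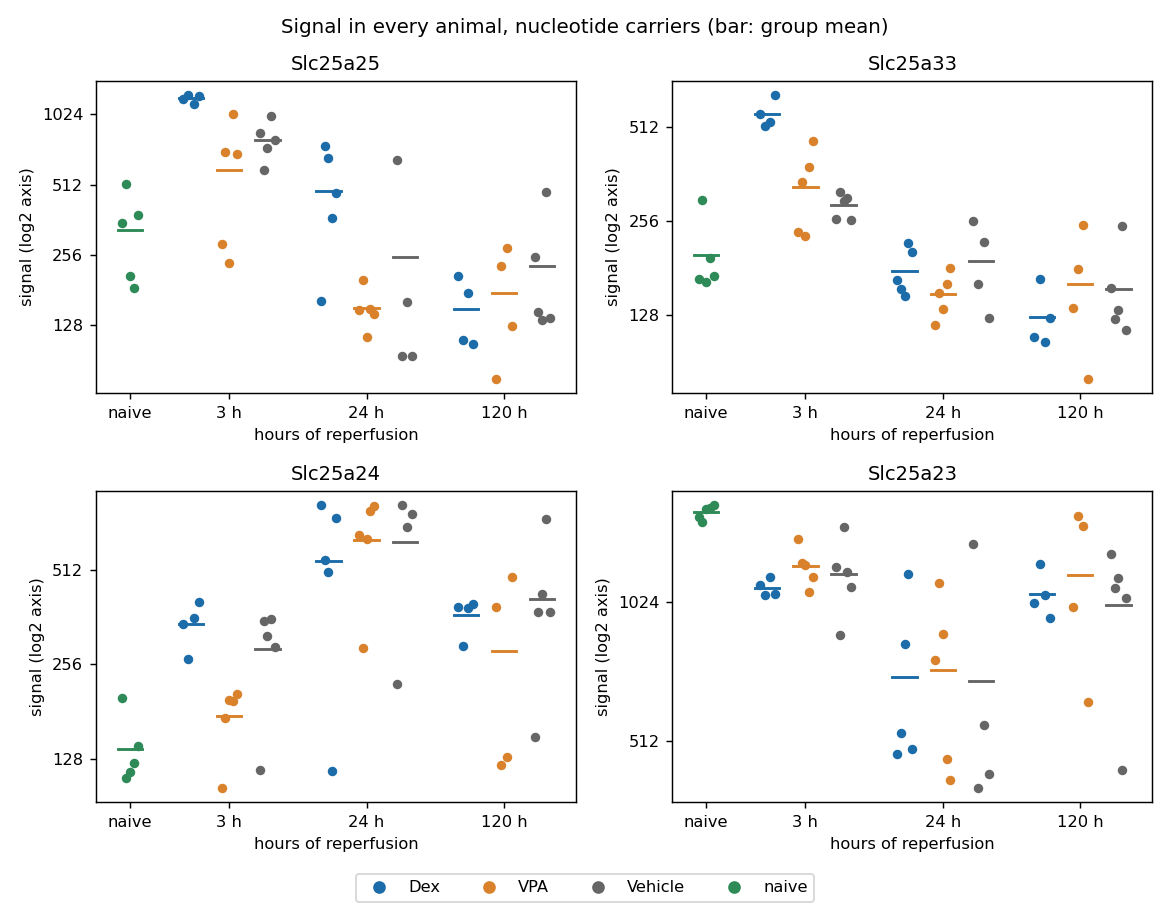
Signals of Slc25a25, Slc25a24, Slc25a23 and Slc25a33, the nucleotide carriers called at 2-fold, in every rat on a log axis. The horizontal axis gives naive rats and then hours of reperfusion, with Dex left of VPA and VPA left of Vehicle at each time. Points are rats and bars are group means. Slc25a33 in Dex rats at 3 h (517.1 to 648.4) was above all other rats.

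Slc25a23 had signals of 479.6, 532.8, 832.7, 1179 and 492.2 in Dex rats at 24 h, 767.5, 1124, 872.7, 467.9 and 422.4 in VPA rats, and 1369, 405.4, 554.4 and 435.6 in Vehicle rats, against 1565, 1525, 1626, 1630 and 1661 in naive rats. All injured rats at 24 h were below every naive rat. It fell by 1.26 (SE 0.28, adjusted p 0.0018) in Dex, by 1.21 (SE 0.28, adjusted p 0.0011) in VPA and by 1.38 (SE 0.30, adjusted p 0.00092) in Vehicle rats on the log2 scale, from limma. At 3 h and 120 h its differences were between -0.74 and -0.39, and none passed. Its other probe set gave -1.52, -1.26 and -1.59 at 24 h in Dex, VPA and Vehicle.

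Slc25a33, a carrier of pyrimidine nucleotides into the matrix, rose most in Dex rats at 3 h. At that time its signals were 566.1, 517.1, 532.6 and 648.4 in Dex rats, 236, 340, 228.3, 381 and 463.5 in VPA rats, and 258.6, 317.9, 297.5, 302.3 and 258.1 in Vehicle rats, and the naive rats had 167.1, 298.6, 163.2, 194.3 and 170.6. Every Dex rat was above every rat of the other groups. Against naive it rose by 1.47 ± 0.22 in Dex (limma, adjusted p 5.6e-06) and by 0.67 ± 0.21 in VPA (adjusted p 0.028), and was 0.53 ± 0.21 in Vehicle (adjusted p 0.077). Dex against Vehicle was 0.94 ± 0.22 (adjusted p 0.028), just under 2-fold, the 1 carrier to pass without a fold limit, where 0.555% of probe sets rose and 0.0548% fell. It did not pass with a pseudocount of 1 (0.98 ± 0.25, adjusted p 0.073), and with 1 array left out it passed in 2 of 9 fits, those without Vehicle 3 h replicate 2 or 4 (differences 0.88 to 0.98, adjusted p 0.042 to 0.17). In Dex rats at 24 h its signals were 146.5 to 217.3, and at 120 h it was 0.58 below naive on the log2 scale (adjusted p 0.048). Dex minus Vehicle was 1.00 lower at 24 h than at 3 h (SE 0.32, unadjusted p 0.0029), which did not pass (adjusted p 0.46). Slc25a36, the other pyrimidine nucleotide carrier, had differences from naive between -0.12 and 0.19 at 3 h.

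Slc25a43, Slc25a40 and Slc25a26 fell at 3 h in all 3 treatments, and in Vehicle rats they were also lower at 24 h. Slc25a43, an orphan carrier, had signals of 113.2, 90.23, 102.5 and 79.75 in Dex rats, 122.5, 94.67, 150.8, 96.07 and 99.32 in VPA rats, and 120, 95.95, 103.5, 103.2 and 87.97 in Vehicle rats. The naive rats had 240.9, 160, 268.6, 284.4 and 255.3, so no injured rat reached the lowest naive rat. The log2 difference was -1.18 ± 0.16 in Dex (limma, adjusted p 4.2e-07) and -1.11 ± 0.15 in Vehicle (adjusted p 8.5e-07). In VPA rats it fell by just under 2-fold (SE 0.15 on the log2 scale, adjusted p 9.8e-06) and was not called. At 24 h it was -0.17 in Dex, -0.33 in VPA and -0.56 in Vehicle, and the last passed without the fold limit (adjusted p 0.0059).

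Slc25a40, which with Slc25a39 brings glutathione into mitochondria, fell at 3 h with log2 differences of -0.99 ± 0.18 in Dex, -0.50 ± 0.17 in VPA and -0.89 ± 0.17 in Vehicle (limma, adjusted p 6.1e-05, 0.042 and 0.00015). Slc25a26, the carrier of S-adenosylmethionine, was outside the main test, and over all probe sets its differences at 3 h were -0.63, -0.62 and -0.61, each with an SE of 0.09 (adjusted p 6.1e-06, 1.1e-05 and 7.1e-06). Its signals were 147.5 to 176.6 in Dex, 141.7 to 178.4 in VPA and 150.4 to 202.6 in Vehicle, all below the naive rats (243.5 to 317.7). By 120 h its differences were between -0.18 and -0.10 and none passed. Slc25a37, mitoferrin-1, which imports iron for heme, rose at 3 h by 0.68 ± 0.13 in VPA (adjusted p 0.00029) and 0.46 ± 0.13 in Vehicle (adjusted p 0.009), and was 0.35 ± 0.14 in Dex (adjusted p 0.066). It is known chiefly from developing red blood cells. The summed signal of 6 genes listed as red blood cell markers at 3 h was 4189 to 5313 in Dex, 2317 to 5010 in VPA and 3436 to 11360 in Vehicle rats, against 1375 to 3782 in naive rats. Without a fold limit 2 of the 6 rose in Dex rats, 0 in VPA rats and 4 in Vehicle rats. In the same order 11.2%, 6.89% and 9.27% of the probe sets tested rose. At 3 h Slc25a37 did not pass between VPA and Vehicle rats. Among these markers, Hbb had signals of 1219 to 3309 in VPA rats at 3 h and 205.7 to 1689 in naive rats. Slc4a1 had 839.9 to 1161 and 1014 to 1729. The naive sum thus came in large part from a gene that did not rise with Hbb. The part of these markers in the Slc25a37 result was not tested.

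At 24 h the falls reached carriers of most substrates. Slc25a42, which brings coenzyme A into the matrix, had signals of 211.3, 113.6, 107.1 and 120.2 in Vehicle rats and 286.5, 393.9, 310.1, 314.6 and 280.3 in naive rats. No Vehicle rat reached the naive range, and the fall of 1.15 was called (SE 0.24, limma, adjusted p 0.00071). Its differences at 24 h were -0.65 ± 0.23 in Dex (adjusted p 0.037) and -0.90 ± 0.23 in VPA (adjusted p 0.0021). Without the 2-fold limit it also fell at 3 h in Dex and Vehicle and at 120 h in Dex and Vehicle, 7 of the 9 comparisons with naive. Slc25a35, an orphan carrier, likewise fell in 7 of the 9, with differences between -0.84 and -0.54.

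Slc25a48, known as a carrier of choline, had signals of 311.1, 91.53, 105.1 and 187.1 in Vehicle rats at 24 h and 364.4, 558.5, 410.8, 389.4 and 405 in naive rats, with no overlap. The difference was -1.35 ± 0.42 (limma, adjusted p 0.014) and was not called without Vehicle 24 h replicate 2 or 3. In Dex rats at 24 h its signals spread from 85.64 in replicate 1 to 548.4 in replicate 4, and the difference of -0.64 ± 0.40 did not pass. In Dex rats at 120 h it had 135.2, 268, 112.6 and 139.8, and was -1.35 ± 0.42 (adjusted p 0.017), a call that was lost without Dex 120 h replicate 3. VPA rats at 120 h had 157.4, 507.6, 538.8 and 63.52, in which replicates 2 and 3 were in the naive range.

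Slc25a30, an uncoupling protein-like carrier known for its expression in kidney, stayed low at 120 h. At that time its signals were 471.5, 710.9, 460.2 and 533.5 in Dex rats, 421.7, 1144, 1084 and 444.1 in VPA rats, and 1101, 549.2, 524.7, 467.1 and 420.3 in Vehicle rats, against 1165, 1369, 1396, 1033 and 1130 in naive rats. All Dex rats were under the naive range, and VPA replicates 2 and 3 and Vehicle replicate 1 were in it. The difference was -1.15 ± 0.24 in Dex (limma, adjusted p 0.0012), -0.78 ± 0.24 in VPA (adjusted p 0.074) and -1.05 ± 0.23 in Vehicle (adjusted p 0.0049). Without the 8 arrays the VPA difference was -1.45 ± 0.18. At 24 h it was -0.91 in Dex, -0.90 in VPA and -1.02 in Vehicle, and all 3 passed (adjusted p 0.0048, 0.0025 and 0.002). The Vehicle call at 120 h was lost without Vehicle 120 h replicate 4 or 5, and that at 24 h without naive replicate 2 or 3 or Vehicle 24 h replicate 2, 3 or 4. The other uncoupling protein-like carriers were dim, and Slc25a27 was 0.66 in Dex and 0.60 in VPA above naive at 24 h over all probe sets.

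**Figure D4:**
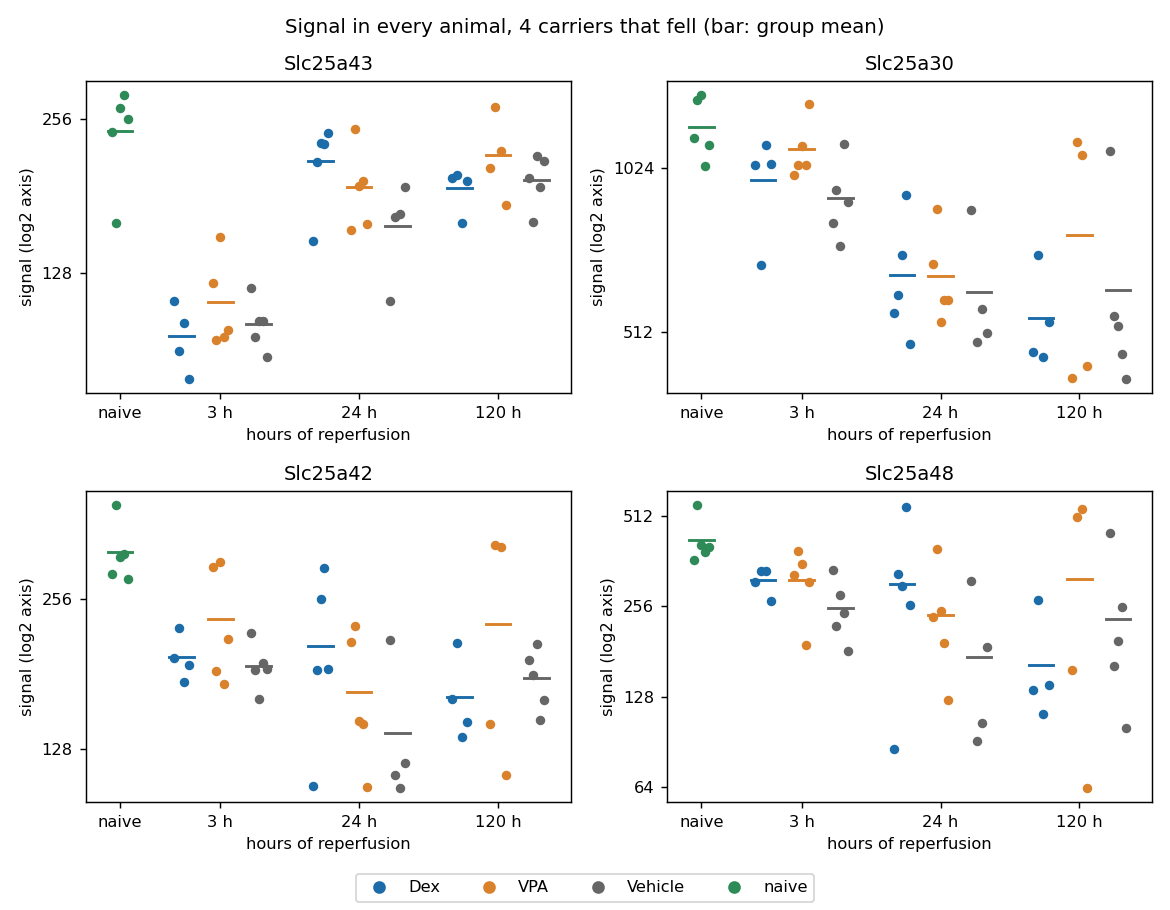
Signals of Slc25a43, Slc25a42, Slc25a48 and Slc25a30, carriers called at 2-fold downward, in every rat on a log axis. The horizontal axis gives naive rats and then hours of reperfusion, with Dex left of VPA and VPA left of Vehicle at each time. Points are rats and bars are group means. Slc25a43 was below all naive rats in every rat at 3 h, and Slc25a30 was 460.2 to 710.9 in Dex rats at 120 h against 1033 to 1396 in naive rats.

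On the probe sets chosen to stand for them, several carriers of amino acids and of di- and tricarboxylates fell at 24 h by less than 2-fold. Slc25a15, the ornithine carrier of the urea cycle, was -0.64 ± 0.23 in Dex, -0.92 ± 0.23 in VPA and -0.94 ± 0.25 in Vehicle, and Slc25a2, its near relative, was -0.89 ± 0.16, -0.76 ± 0.16 and -0.80 ± 0.17. Slc25a13, the aspartate/glutamate carrier citrin of the malate-aspartate shuttle, was -0.61, -0.74 and -0.87 in the same order. Its other probe set was -1.48, -1.39 and -1.39, more than 2-fold, and was called in all 3. That probe set was also called in Vehicle rats at 120 h (-1.41 ± 0.47, limma, adjusted p 0.043). Slc25a10, the dicarboxylate carrier, fell in VPA (-0.73) and Vehicle (-0.79), while its -0.47 in Dex did not pass (limma, adjusted p 0.11). Slc25a11, the oxoglutarate/malate carrier, fell in all 3 over all probe sets (-0.41, -0.62 and -0.66). Slc25a21, the oxoadipate carrier, fell in VPA (-0.77) and Vehicle (-0.90). In contrast, Slc25a22, a glutamate carrier, rose at 24 h by 0.93 ± 0.21 in Dex, 0.76 ± 0.21 in VPA and 0.66 ± 0.22 in Vehicle (adjusted p 0.0021, 0.0046 and 0.023). Slc25a20, the carnitine/acylcarnitine carrier of fatty acid oxidation, fell in Vehicle alone by the test (-0.38 over all probe sets), with -0.01 in Dex and -0.23 in VPA, and the difference between treatments was not called. Slc25a38, the glycine carrier of heme synthesis, was -0.56, -0.74 and -0.63 at 24 h in Dex, VPA and Vehicle, and all 3 passed, the Dex value not over all probe sets (adjusted p 0.053).

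**Figure D5:**
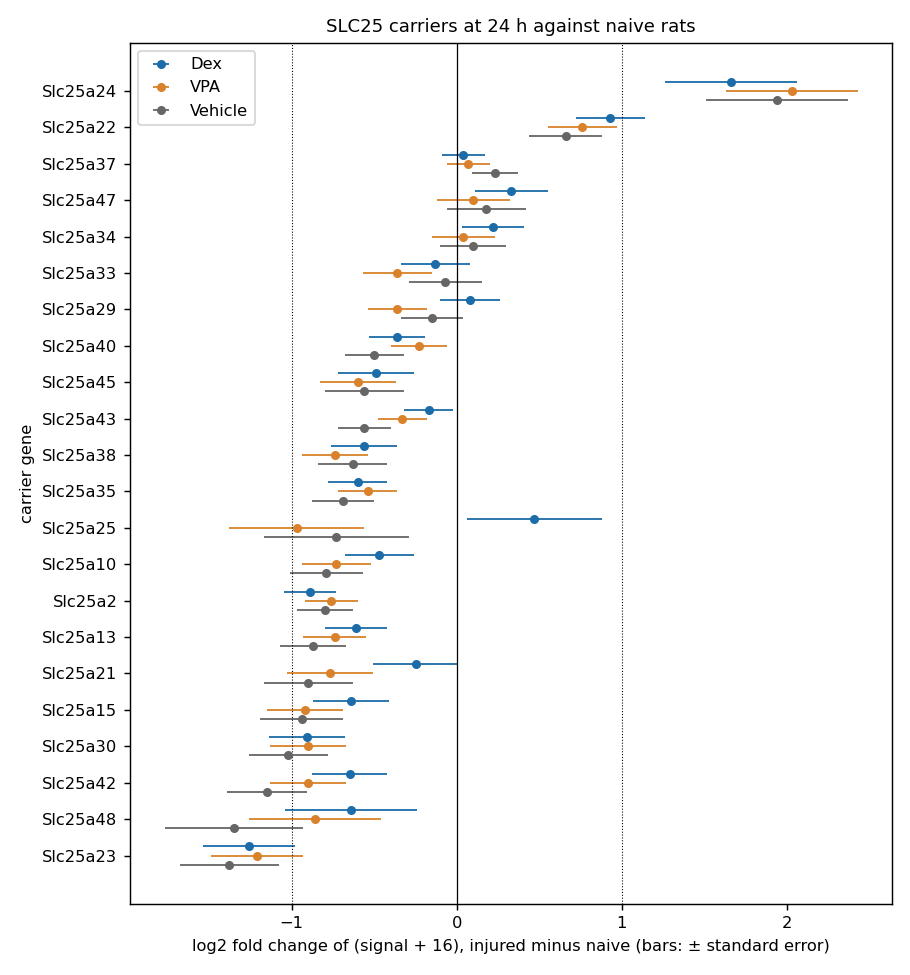
Points are the log2 differences of signal + 16 from naive at 24 h for the 22 carriers of the main test, with bars of 1 SE, in Dex, VPA and Vehicle. Slc25a23 lies furthest to the left at -1.26, -1.21 and -1.38, and Slc25a24 lies furthest to the right at 1.66 in Dex, 2.03 in VPA and 1.94 in Vehicle.

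The carriers that serve ATP synthesis changed by less than 2-fold. Slc25a5, an ADP/ATP carrier (ANT2), had signals at 24 h of 2288, 3583, 3980, 4399 and 3028 in Dex rats, 2624, 3428, 2910, 2708 and 2870 in VPA rats, and 3674, 2742, 2776 and 2873 in Vehicle rats, against 3818, 3653, 4111, 4004 and 4031 in naive rats. Over all probe sets it fell by 0.43 in VPA and 0.39 in Vehicle on the log2 scale, and the difference of -0.22 in Dex did not pass. Slc25a4, the other ADP/ATP carrier of this tissue (ANT1), rose by 0.36 in Dex at 24 h and was 0.18 in VPA and 0.06 in Vehicle. Slc25a3, the phosphate carrier, had 2167, 2542, 2948, 2953 and 2401 in Dex, 2289, 2318, 1901, 2113 and 1924 in VPA, 2068, 1660, 2049 and 1933 in Vehicle and 1862, 2563, 2525, 2493 and 2322 in naive rats. Its groups overlapped, and at 24 h it passed in none. Slc25a39 had 1558, 1747, 2150, 2610 and 1636 in Dex, 1777, 2007, 1615, 1673 and 1514 in VPA, 1844, 1309, 1489 and 1395 in Vehicle, and 1782, 2336, 2139, 2047 and 2081 in naive rats, and fell by 0.46 in Vehicle over all probe sets. Slc25a5, Slc25a4, Slc25a3, Slc25a39 and some other carriers have pseudogene copies in the RefSeq annotation, and the probe sets could not be told apart from these copies here.

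Among the kidney cell markers, those of the proximal tubule and of the loop and distal tubule fell at 24 h. Without a fold limit, 8.49% of the probe sets tested fell in Dex at 24 h, 11.2% in VPA and 11.9% in Vehicle. The shares that rose were 11.9%, 21.8% and 17.1% in the same order, and the marker counts at 24 h stand beside these. Of 9 measured proximal tubule markers, 5 fell in Dex, 8 in VPA and 8 in Vehicle rats at 24 h without a fold limit, and their median differences were -1.02, -0.98 and -1.08. Their summed signal at 24 h was 8349 to 19950 in Dex, 9677 to 21720 in VPA and 8210 to 25940 in Vehicle rats, and 24150 to 29520 in naive rats, and none of the 9 was among the dimmest 25% of the array in every rat of a group. At 3 h 0 of the 9 were called in any treatment, with medians of -0.19 in Dex, -0.18 in VPA and -0.28 in Vehicle. The loop and distal tubule medians at 3 h were -0.21, -0.23 and -0.33, and those of the collecting duct -0.43, -0.25 and -0.44, with 0 called. The part of these markers in the 3 h falls of Slc25a43, Slc25a40 and Slc25a26 was not tested. All 6 measured tubular injury markers rose at 24 h in each treatment, with median differences of 2.11 in Dex, 3.16 in VPA and 2.91 in Vehicle. Of 5 markers of the loop and distal tubule, 1 fell in Dex, 4 in VPA and 3 in Vehicle rats at 24 h, with medians of -0.69, -1.40 and -1.72. Their summed signal was 4026 to 13840 in Dex, 3671 to 9580 in VPA and from 2629 upward in Vehicle rats (median 4174), all Vehicle and VPA rats being below the naive range of 11440 to 15610. Of 4 neutrophil markers, 0 rose in Dex, 3 in VPA and 3 in Vehicle rats at 24 h (medians 0.13, 1.02 and 1.09), and of 6 macrophage markers 1, 2 and 2 rose (0.38, 0.68 and 0.53). Other lists had few calls at 24 h. In Dex, VPA and Vehicle rats, 0, 0 and 1 of 4 collecting duct markers fell (medians -0.21, -0.69 and -0.42). Among 3 podocyte markers 0, 1 and 1 rose, and among 5 fibroblast markers 0, 1 and 0 rose. For 3 endothelial markers 0 were called in each treatment. Only 2 of the 3 podocyte, 2 of the 3 endothelial and 5 of the 6 macrophage markers were in the main test, so the others could not be called. In RNA from pieces of kidney, fewer tubule cells, less RNA per cell and a different share of cortex and medulla cannot be told apart. The part of these markers in the carrier results was not tested.

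Between drug and Vehicle at matched times, Slc25a33 in Dex rats at 3 h was the 1 carrier that passed without a fold limit, a call that did not hold with a pseudocount of 1 and was lost when 1 of 7 arrays was left out, as given above. At 2-fold limma called 0 carriers in all 6 comparisons, and an analysis of variance called 0 as well. With array weights 2 were called for Dex at 24 h, Slc25a25 and Slc25a48. The share of probe sets that rose and fell at 2-fold was 0.144% and 0.0274% for Dex at 3 h, 0.103% and 0.0137% for Dex at 24 h, 0.00685% and 0.0479% for VPA at 3 h, and 0.0% in the other 3. With an unadjusted p under 0.05 there were 4 carriers for Dex at 3 h, 11 at 24 h and 3 at 120 h, and 6, 1 and 1 for VPA, with no share of all probe sets at that limit to set beside them. The median carrier difference was 0.02 for Dex against Vehicle at 3 h, 0.18 at 24 h and -0.09 at 120 h, beside 0.01, 0.04 and -0.05 over all probe sets. For VPA at 3, 24 and 120 h it was 0.10, 0.10 and 0.02, beside 0.05, 0.02 and -0.04. Of the 43 carriers, 34 were higher and 9 lower in Dex than in Vehicle rats at 24 h, where 42.8% of all probe sets were lower, and the counts were also 34 and 9 for VPA against Vehicle at 3 h, where 40.1% were lower. The 6 comparisons with Vehicle share its rats with the comparisons of Vehicle with naive. Whether a drug difference changed with time was tested by 4 interaction terms, and limma called 0 carriers in each, as did the analysis of variance. With array weights 6 were called for Dex between 24 and 120 h, among them Slc25a25 and Slc25a48. The counts at an unadjusted p under 0.05 were 5 and 5 for Dex (24 h against 3 h and 120 h against 24 h) and 3 and 1 for VPA, and 0.0274% and 0.0% of probe sets were called for Dex and 0.00685% and 0.0% for VPA. Between 120 h and 24 h, limma called 0 carriers at 2-fold in VPA rats (0.0822% of probe sets rose and 0.267% fell) and 0 in Vehicle rats (0.0616% and 0.164%), with 6 and 7 carriers at an unadjusted p under 0.05, and the analysis of variance called 0 in both.

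Other genes of the same compartment were taken from lists by function. Of 7 measured regulators of mitochondrial biogenesis, 2 fell in Dex rats at 24 h, 4 in VPA rats and 4 in Vehicle rats, without a fold limit. Their median differences were -0.46, -0.81 and -0.84. Only 4 of the 7 were among the probe sets of the main test, which a gene could enter by its own change. In that test 8.49%, 11.2% and 11.9% of the probe sets fell in the same order. The largest fall was that of Esrrg, an estrogen-related receptor that drives oxidative genes, with -0.90 ± 0.27 in Dex, -1.34 ± 0.27 in VPA and -1.79 ± 0.29 in Vehicle (limma, adjusted p 0.015, 0.00034 and 8.3e-05). Ppargc1a, the coactivator PGC-1alpha, was -0.63, -1.06 and -1.35 at 24 h, of which the Dex value did not pass. Of 6 other transport genes of the mitochondrial membranes, 4 were in the main test. Mpc1, a subunit of the pyruvate carrier, fell by 0.73 in Dex, 1.20 in VPA and 1.00 in Vehicle at 24 h. Mcu, the pore of the calcium uniporter, rose by 0.63 in VPA and 0.75 in Vehicle and was 0.47 in Dex.

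Of 10 measured genes of the import route that inserts carriers into the inner membrane, 1 was called at 24 h, Agk, a subunit of the TIM22 complex, which rose by 0.48 in Dex, 0.56 in VPA and 0.37 in Vehicle. The median of that list was 0.14, 0.11 and 0.01. Of 6 genes used as measures of mitochondrial content, 0 were called at 24 h in any treatment, with medians of 0.21 in Dex, 0.08 in VPA and 0.20 in Vehicle. Only 1 gene of each of these 2 lists was among the probe sets of the main test. At 3 h that gene of the content list, Hspd1, the matrix chaperone HSP60, rose by 0.88 in Dex, 0.55 in VPA and 0.78 in Vehicle (adjusted p 5e-06, 0.0023 and 2.1e-05).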

How the data were processed

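Kidney RNA of 46 rats in 10 groups was hybridised to Rat Gene 1.1 ST arrays, 1 array per rat. The authors normalised the scans by iterPLIER in Affymetrix Expression Console 1.1 (per the submitters' processing notes) and deposited 1 signal intensity per probe set on a linear scale. No detection calls were used, so the number of arrays limits the precision. Probe sets were named from the platform annotation: 18644 had 1 symbol, 962 several and 9608 none. Groups follow the labels.

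Of the deposited intensity values, log2(signal + 16) was fitted with limma 3.58.1 in R 4.3.3 (10 group means, 36 residual degrees of freedom) over the 14607 probe sets whose SD exceeded the median. Fold changes of at least 2 with a Benjamini-Hochberg adjusted p under 0.05 were called. The fit was tested on simulated data. Tables were made with Python 3.11.15, pandas 2.3.3 and numpy 2.4.6, and figures with matplotlib 3.10.9.

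Members were chosen by gene name. Values in every rat are given for members called at 2-fold and for the 3 with the highest mean signal, and pathway lists by counts with up to 3 called genes. The members, lists and markers were chosen with earlier results of these data known. Alternatives were quantile normalisation, a pseudocount of 1, all probe sets, removal of the dimmest 25%, analysis of variance, array weights, only 2 groups in the fit, the mean of a gene's probe sets, no fold limit, the replicate number as a block and each array left out. Leaving out 8 arrays was added after seeing the data. Promoter windows came from RefSeq (GRCr8), a build not used by the arrays.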

Additional observations from a re-analysis of the deposited data

Results flagged for a closer look

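In 110 sets of 4 or 5 rats (11 carriers in 10 groups), 14 had a lowest or highest rat whose gap to the nearest other rat was a large share of the range (Dixon's test). Chance flags about 1 in 20 such sets. Slc25a24 accounted for 6 of the 14, all lowest rats: Dex 24 h replicate 4 at 117 (other rats 503 to 825), Dex 120 h replicate 2 at 294 (388 to 399), VPA 3 h replicate 1 at 103 (173 to 207), VPA 24 h replicate 2 at 289 (641 to 818), Vehicle 3 h replicate 1 at 118 (292 to 357) and Vehicle 24 h replicate 1 at 222 (702 to 821). Vehicle 24 h replicate 1 also stood apart as the highest rat for Slc25a42 at 211 (107 to 120) and Slc25a5 at 3670 (2740 to 2870).

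At 120 h, Vehicle replicate 4 was lowest for Slc25a23 at 444 (1040 to 1300), and Vehicle replicate 1 was highest for Slc25a30 at 1100 (420 to 549). Slc25a43 was lowest in Dex 24 h replicate 1 at 148 (211 to 240) and in Dex 120 h replicate 3 at 160 (193 to 199). Naive replicate 2 was highest for Slc25a48 at 559 (364 to 411) and for Slc25a33 at 299 (163 to 194). No carrier's drug difference was called to change with time.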

How the results depend on the processing

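Counts of carriers called at 2-fold were the same, to within 1.5 times, over all probe sets, without the dimmest 25%, by analysis of variance, after quantile normalisation, with only 2 groups in the fit and with the mean of a gene's probe sets, in each comparison. Of the 21 calls of single carriers, 0 changed direction, 20 held under every alternative that kept all arrays (the exception was Slc25a24 in Dex rats at 3 h), and 12 also held with each array left out. With no fold limit the counts against naive were 8 (Dex 3 h), 10 (Dex 24 h), 9 (Dex 120 h), 4 (VPA 3 h), 13 (VPA 24 h), 6 (Vehicle 3 h), 15 (Vehicle 24 h) and 5 (Vehicle 120 h), in place of 4, 2, 3, 0, 2, 2, 5 and 2. They were 1 for Dex against Vehicle at 3 h and 2 for Dex at 120 h against 24 h, in place of 0 and 1. With a pseudocount of 1 the count was 4 for Dex 24 h and 1 for VPA 3 h. With array weights it was 9 for Vehicle 24 h, 1 each for VPA 3 h and VPA 120 h, 2 for Dex against Vehicle at 24 h, 1 each for Vehicle and VPA at 120 h against 24 h, and 6 for the change of the Dex difference with time, where 0 were called without weights. The cause was not tested.

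Without the 8 arrays most like another time or naive, the counts against naive were 4 (Dex 24 h), 1 (VPA 3 h) and 7 (VPA 24 h). They were 8 (VPA 120 h), 10 (Vehicle 24 h) and 4 (Vehicle 120 h). The count was 1 for Dex against Vehicle at 24 h (Slc25a25) and 1 for Vehicle at 120 h against 24 h (Slc25a23). In each of these comparisons more of the probe sets tested also passed at 2-fold than with all arrays. Against naive, 4.46% rose and 3.89% fell in Dex at 24 h, and 7.55% and 5.11% in VPA at 24 h. The shares were 8.3% and 6.73% in Vehicle at 24 h and 4.03% and 4.26% at 120 h. The larger counts are thus not shown to be particular to the carriers.

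With 1 array left out the counts ranged between 3 and 5 (Dex 3 h), 2 and 4 (Dex 24 h, 4 without Dex replicate 4), 1 and 4 (Dex 120 h, 1 without replicate 3), 0 and 1 (VPA 3 h), 2 and 6 (VPA 24 h, 6 without replicate 2), 0 and 1 (VPA 120 h, 1 without replicate 2), 1 and 3 (Vehicle 3 h, 1 without naive replicate 3 or 4), 3 and 10 (Vehicle 24 h, 10 without replicate 1 and 3 without replicate 2 or 3) and 0 and 3 (Vehicle 120 h, 0 without replicate 4 or 5). They were 0 and 1 for Dex against Vehicle at 24 h (1 without Vehicle replicate 1) and for 120 h against 24 h in Dex, VPA and Vehicle, and 0 in the other 5 comparisons with Vehicle and in the changes with time.

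With the replicate number as a block the counts were 4, 2 and 3 for Dex at 3, 24 and 120 h, 0, 2 and 0 for VPA, and 2, 5 and 2 for Vehicle, and no count moved. The deviations of same-numbered rats of different groups had a mean r of 0.0142 (78 of 195 pairs over 0.1), and those of other pairs -5.4e-05 (259 of 756 over 0.1). The numbers were taken only as names, though these values cannot show that they carry no batch. The arrays give signal without a background measure, so differences of dim carriers have an unknown floor.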

Other observations

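Members of the carrier superfamily named as uncoupling proteins lay outside the name rule. Ucp2 rose by 1.07 ± 0.31 in Dex rats at 120 h (limma, adjusted p 0.011), by 0.99 ± 0.29 in VPA rats at 24 h (adjusted p 0.0082) and by 0.85 ± 0.29 in Vehicle rats at 120 h (adjusted p 0.048) on the log2 scale. Ucp1, the uncoupling protein of brown fat, differed from naive by 2.71 ± 0.93 in Vehicle rats at 3 h (adjusted p 0.035). Its signals were 20.97 to 1488 in Vehicle rats and 3.491 to 2940 in Dex rats at 3 h, and 5.465 to 442.8 in naive rats, so the groups overlapped. In Vehicle rats at 3 h Ucp1 was the 1 gene called of 5 fat cell markers. The summed signal of these markers was 521 to 4027 in Vehicle rats at 3 h and 469.5 to 2213 in naive rats, and their part in the Ucp1 value was not tested. A probe set shared by Slc25a51 and Slc25a52 was -0.45 in Dex, -0.46 in VPA and -0.53 in Vehicle at 24 h over all probe sets (adjusted p 0.0065, 0.0028 and 0.0019).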
